A study of Rattus norvegicus with 32 samples.

Results

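The genes described here are 30 genes of the synaptic vesicle and its release machinery, taken by symbol from the 17216 gene rows of the count tables, and 30 of 30 were found. They comprise 4 SNARE genes (Snap25, Vamp1, Vamp2, Stx1a), 3 genes of SNARE disassembly (Nsf, Napa, Napb), 2 complexins (Cplx1, Cplx2), 6 synaptotagmins (Syt1, Syt2, Syt4, Syt5, Syt7, Syt11), 11 genes of vesicle membrane and vesicle-bound proteins (Syn1, Syn2, Syn3, Syp, Sypl1, Sv2a, Sv2b, Rab3a, Rab3b, Rab3c, Sncb) and 4 genes of the active zone (Rims1, Rims2, Bsn, Pclo). Polyadenylated RNA was measured in the cell body and, separately, in the dendrites of 16 single rat neurons, which gave 16 soma and 16 dendrite libraries. The neurons were wildtype hippocampal cells of Sprague Dawley rats, labelled pyramidal, taken at embryonic day 18 and grown for 15 days in culture. Both compartments shared this background and differed in the part of the cell that the pipette took. Several cultures and days supplied the cells, and the culture of each cell is not given in the sources used here.

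A nerve terminal stores transmitter in synaptic vesicles and releases it by fusing them with the plasma membrane at the active zone. Fusion is driven by SNARE proteins on the vesicle and on the target membrane, which zip together, and is timed by synaptotagmins that bind calcium and by complexins. After fusion the SNARE complex is taken apart by the ATPase NSF and its SNAP adaptors. These proteins are best known from axon terminals, while SNARE proteins and some synaptotagmins also serve membrane traffic in dendrites.

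Soma libraries held between 878125 and 24721811 gene counts (median 15629499) and dendrite libraries between 229149 and 24439768 (median 8842539). Both libraries of neuron 25 were the shallowest of their compartment, so that 10 counts there stood for 11.4 CPM (counts scaled to 1000000 gene counts per library) in soma and 43.6 CPM in dendrites, against 0.405 and 0.409 CPM in the deepest libraries. The numbers in the labels pair soma and dendrites, but the profiles carried this pairing weakly: 7 of 16 somata matched their own dendrites best, and 5 of 16 dendrites their own soma. Paired values and correlations thus rest on the labels as given. Among the neurons that matched across numbers were 7, 8 and 9. With profiles centred within each compartment, the Spearman correlation was 0.259 between soma 7 and dendrites 9 and 0.165 between soma 9 and dendrites 7, but 0.0699 between soma 9 and dendrites 9. For soma 8 it was 0.231 with dendrites 9 and 0.193 with dendrites 8. Pairs of dendrite libraries were compared on profiles that were not centred, a different scale, where the median correlation was 0.44. On that scale the dendrites of neurons 13 and 20 were the most alike, at 0.784, and the next highest pair of dendrites had 0.56. The main results are also given without neurons 7, 8 and 9, or without neuron 20, where that moved them.

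The labelled cell type was checked against its markers. The 8 pan-neuronal markers summed to between 4459 and 14400 CPM in soma and between 6136 and 15143 CPM in dendrites. Neurod6, a transcription factor of excitatory forebrain neurons, had 10 or more counts in 32 of 32 libraries. Markers of GABAergic interneurons summed to between 0 and 13314 CPM in soma (median 148), highest in neuron 8, and to between 10.9 and 3141 CPM in dendrites (median 317), highest in neuron 7. Gad1, the defining enzyme of GABA synthesis, had 10 or more counts in 7 soma and 11 dendrite libraries. Astrocyte markers summed to between 65.8 and 818 CPM in soma and between 120 and 2771 CPM in dendrites, where neuron 7 was highest again. Oligodendrocyte lineage markers summed to between 0 and 74.1 CPM in soma (median 0.929) and between 0 and 147 CPM in dendrites (median 7.41). Their highest libraries were the soma of neuron 11 and the dendrites of neuron 22. Microglia markers did not exceed 0.698 CPM in any library. In amplified single-cell RNA, fewer molecules per cell and poorer capture of a transcript cannot be told apart.

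Promoters of 24 of the 30 genes were found in RefSeq (rat build GRCr8), of which the 250 bases before the transcription start are described. The sequences of 4 are printed because they belong to a pair of synaptobrevins and a pair of vesicle proteins of which one gene was found in 32 of 32 libraries (Vamp2, Syn1) and the other in far fewer (Vamp1 in 14, Syp in 3). Capitals mark the GC box (GGGCGG, or CCGCCC on the other strand), a site known to bind Sp1-type factors, and the palindromic cAMP response element (TGACGTCA), known to bind CREB.
Vamp2, chr10:54292539-54292788, plus strand: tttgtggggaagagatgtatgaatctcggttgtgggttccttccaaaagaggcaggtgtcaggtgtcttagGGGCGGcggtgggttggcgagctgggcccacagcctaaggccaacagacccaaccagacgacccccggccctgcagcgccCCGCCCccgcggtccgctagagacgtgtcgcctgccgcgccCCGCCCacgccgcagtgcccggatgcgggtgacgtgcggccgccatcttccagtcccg
Vamp1, chr4:159698644-159698893, plus strand: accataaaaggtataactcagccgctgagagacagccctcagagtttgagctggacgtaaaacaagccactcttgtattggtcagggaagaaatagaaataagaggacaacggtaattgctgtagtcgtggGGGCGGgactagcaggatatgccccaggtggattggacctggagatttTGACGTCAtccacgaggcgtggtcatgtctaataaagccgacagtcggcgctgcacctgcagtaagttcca
Syn1, chrX:3725495-3725744, plus strand: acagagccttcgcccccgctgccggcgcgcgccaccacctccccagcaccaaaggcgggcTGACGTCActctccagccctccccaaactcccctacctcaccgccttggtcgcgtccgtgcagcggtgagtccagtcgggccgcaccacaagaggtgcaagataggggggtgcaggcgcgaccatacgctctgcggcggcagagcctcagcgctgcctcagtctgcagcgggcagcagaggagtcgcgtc
Syp, chrX:17536450-17536699, minus strand: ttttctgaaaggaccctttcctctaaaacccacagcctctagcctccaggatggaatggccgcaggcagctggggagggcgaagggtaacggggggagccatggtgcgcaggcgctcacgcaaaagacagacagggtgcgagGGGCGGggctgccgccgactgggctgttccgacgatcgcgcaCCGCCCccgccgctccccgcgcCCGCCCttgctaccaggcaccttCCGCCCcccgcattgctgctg
The Vamp2 window had 68.0% G and C, 24 CpG sites and 3 GC boxes, and the Vamp1 window 50.4%, 11 CpG sites, 1 GC box and 1 cAMP response element. The Syn1 window had 69.6% G and C, 24 CpG sites, a cAMP response element and 0 GC boxes. The Syp window, of a gene found in 3 libraries, was as rich as that of Vamp2, with 68.0% G and C, 22 CpG sites and 4 GC boxes.

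Across the 24 windows the median G and C content was 65.4%, against 52.0% over all 27455 promoters of the table, and the median number of CpG sites was 16 against 6. A GC box on either strand was in 18 of 24 (75.0%), against 32.4% of all promoters. The cAMP response element was in 3 of 24, those of Vamp1, Napa and Syn1 (12.5%), against 1.7% of all promoters. TATAAA on either strand was in 0 of 24, against 13.1% of all promoters. The motifs do not overlap each other, and a match describes letters in this window, not a working site. Windows of the 9 genes detected in 28 or more libraries had a median of 68.0% G and C, those of 10 genes detected in 6 to 27 libraries 61.0%, and those of 5 genes detected in 5 or fewer libraries 66.0%, so G and C content did not follow detection.

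The 30 genes together held a median of 0.451% of the gene counts in soma (between 0.233% and 0.778%) and of 0.509% in dendrites (between 0.047% and 0.7%). In CPM the soma sum was 4602 ± 1370 and the dendrite sum 4749 ± 1860 (SD, n = 16), a paired difference of 148 ± 1645 CPM, and it was higher in dendrites in 7 of 16 neurons. The lowest library was that of the dendrites of neuron 20, with 471 CPM. Without neuron 20 the means were 4616 CPM in soma and 5035 CPM in dendrites, and without neurons 7, 8 and 9 they were 4209 and 4374 CPM. With TMM-scaled CPM the direction turned, with 4572 CPM in soma and 4542 in dendrites. The difference between the compartments was within the spread between neurons in each case. Of the sum, Snap25 and Syt4 together contributed 2327 ± 866 CPM to soma libraries and 2244 ± 1365 CPM to dendrite libraries (SD, n = 16).

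By role, the SNARE genes summed to 1894 ± 996 CPM in soma and 1919 ± 1289 CPM in dendrites (higher in dendrites in 8 of 16 neurons). This direction turned without neurons 7, 8 and 9 (1598 and 1523 CPM) and with TMM-scaled CPM (1924 and 1883 CPM). The genes of SNARE disassembly summed to 73.2 ± 74.0 and 52.8 ± 64.3 CPM (7 of 16). Complexins summed to 196 ± 199 and 264 ± 275 CPM (9 of 16), and synaptotagmins to 1004 ± 714 and 1063 ± 932 CPM (6 of 16). In each of these 4 groups the difference was smaller than the SD within a compartment. Genes of the vesicle membrane summed to 1070 ± 399 and 981 ± 545 CPM (8 of 16) and those of the active zone to 365 ± 324 and 471 ± 328 CPM (10 of 16), again within 1 SD. Without neuron 20, or without neurons 7, 8 and 9, these 5 other groups kept their direction, and with TMM-scaled CPM the synaptotagmins summed to 991.7 and 991.5 CPM. All of these values are shares of a library's counts and depend on transcript length, so they compare compartments, not genes.

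**Figure D1:**
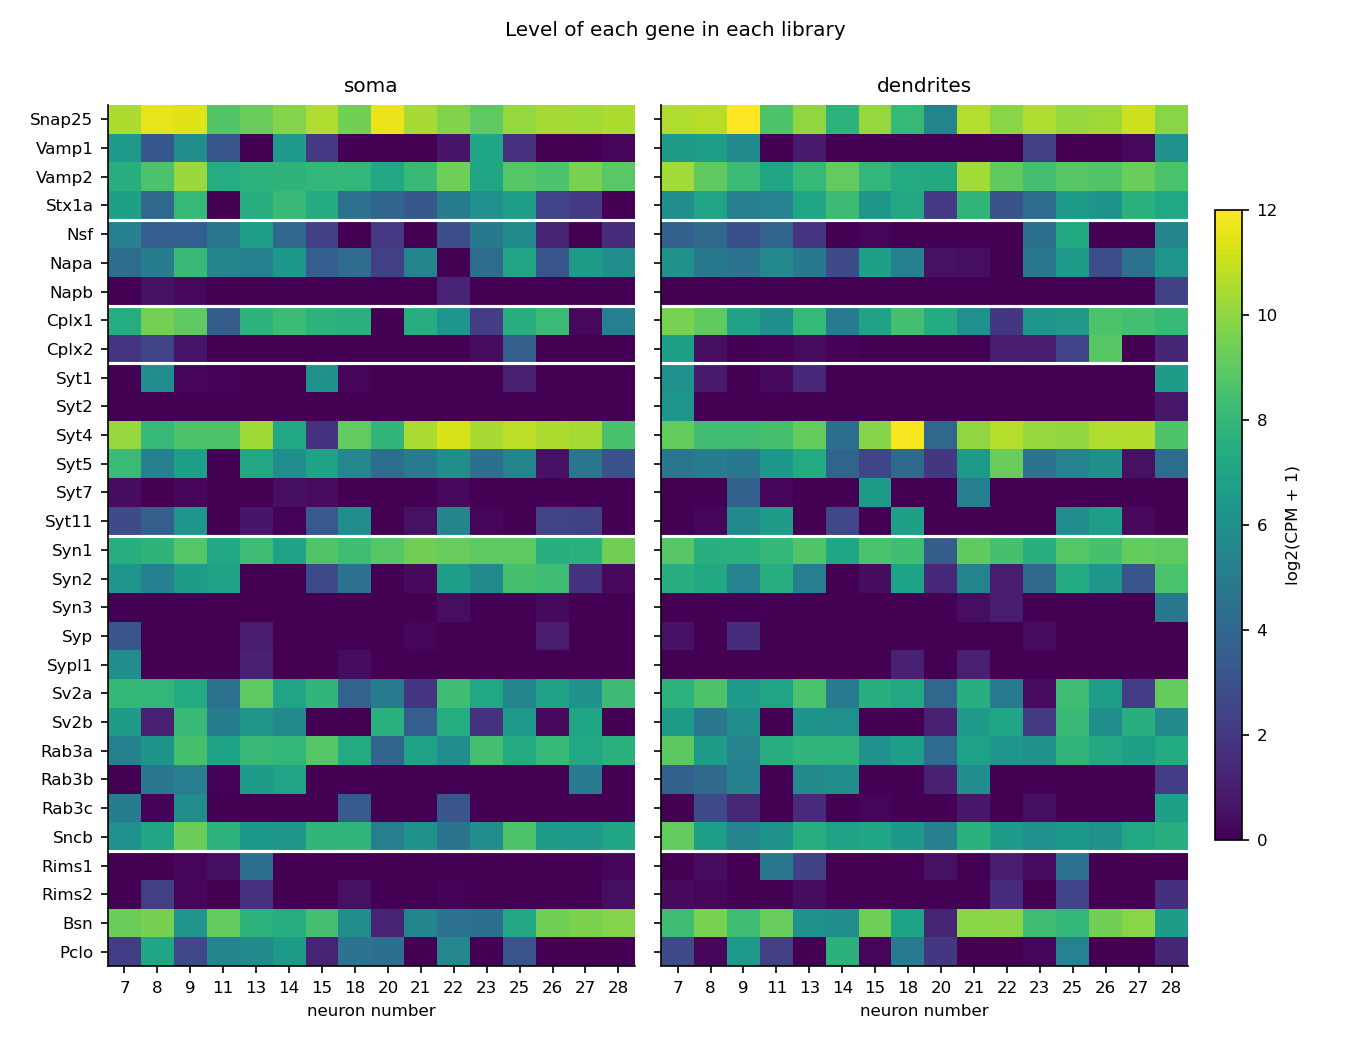
Level of each of the 30 genes in each library, as log2(CPM + 1) in colour, with soma on the left and dendrites on the right, neurons along the x axis and white lines between the role groups. Rows such as Snap25, Vamp2 and Syn1 are bright in nearly every library, those of Napb, Syt2, Syn3, Syp and Rims2 are dark in nearly every library, and the column of the dendrites of neuron 20 is pale in rows that are bright elsewhere.

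The 30 genes fell into 3 sets by how widely they were detected. A gene was counted as detected with 10 or more counts. 11 genes (Snap25, Vamp2, Stx1a, Cplx1, Syt4, Syt5, Syn1, Sv2a, Rab3a, Sncb and Bsn) were detected in 28 or more of the 32 libraries, 10 in 6 to 27 and 9 in 5 or fewer. The median gene of the 30 was detected in 18 libraries, against 2 for all 17216 genes.

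Snap25, Vamp2, Syt4, Syn1, Rab3a and Sncb were detected in both compartments of 16 of 16 neurons. Sv2a was missed in the dendrites of 1 neuron, and Bsn was below 10 counts in both libraries of neuron 20 and present in both libraries of the other 15. Stx1a, Cplx1 and Syt5 were each detected in 14 soma and 15 dendrite libraries. Over these 11 genes, a neuron that showed a gene in either compartment showed it in both in 94.3% of cases, against 91.1% for the 1538 genes of the whole table with the same breadth. The sharing between compartments was thus close to that of other widely detected genes.

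The middle set came and went between neurons, and within a neuron between soma and dendrites. Napa, the SNAP adaptor of NSF, was detected in 15 soma and 12 dendrite libraries, and NSF itself (Nsf) in 12 and 8. In 8 neurons Nsf was detected in both compartments, in 4 in soma alone and in 0 in dendrites alone, and for Napa the numbers were 12, 3 and 0. These are counts at full depth, where the median soma library was deeper. With 15 neurons thinned to the same depth (described below), Nsf had 5 or more counts in 7 soma and 6 dendrite libraries. For Napa the numbers were 13 and 12. Soma alone was also the commoner case over the 5612 genes detected in 6 to 27 libraries, with 19244 cases against 16068 in dendrites alone. Sv2b, a vesicle glycoprotein, was detected in 12 soma and 12 dendrite libraries and Syn2, the second synapsin, in 11 and 12. Pclo, which encodes the active zone scaffold Piccolo, was detected in 10 soma and 6 dendrite libraries, in both compartments of 6 neurons, in soma alone in 4 and in dendrites alone in 0. At the same depth Pclo had 5 or more counts in 8 soma and 5 dendrite libraries.

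Syt11, a synaptotagmin that does not bind calcium, was detected in 9 soma and 6 dendrite libraries, yet in both compartments of 3 neurons only. Its highest libraries were the soma of neuron 9, with 77.4 CPM, and the dendrites of neuron 18, with 108 CPM. Vamp1, the second synaptobrevin, was detected in 8 soma and 6 dendrite libraries, and reached 136 CPM in the soma of neuron 23 and 103 CPM in the dendrites of neuron 8. Rab3b, a vesicle GTPase, was detected in 5 soma and 6 dendrite libraries and in both compartments of neurons 8, 9, 13 and 14. Its highest values were in neuron 14, where the soma held 127 CPM and the dendrites 62.1 CPM. Rab3c, its close relative, was detected in 4 and 4 libraries but in both compartments of 1 neuron, and reached 57.2 CPM in the soma of neuron 9 and 111 CPM in the dendrites of neuron 28. Cplx2 was detected in 4 soma and 2 dendrite libraries, and stayed at or under 11.4 CPM in soma but reached 110 CPM in the dendrites of neuron 7 and 468 CPM in those of neuron 26, the latter from 541 counts. Over this set, the share of cases with both compartments was 54.7%, against 42.95% for these 5612 genes.

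The 9 genes of the rare set include the best-known calcium sensor and the best-known vesicle marker. Syt1, the sensor of fast release, was detected in the soma of neurons 8 and 15, with 58.9 and 67.8 CPM, and in the dendrites of neurons 7, 13 and 28, with 66.2, 1.62 and 98.4 CPM, and never in both compartments of 1 neuron. Syt2, the other fast sensor, had 0 counts in 16 of 16 soma libraries, where 3 counts would have been 0.121 CPM in the deepest library and 3.42 CPM in the shallowest, and 620 counts (77.6 CPM) in the dendrites of neuron 7. Syt7, a slower sensor, was detected in 0 soma libraries and in the dendrites of neurons 9, 15 and 21, with 12.3, 98.1 and 35.0 CPM. Syt1 and Syt7 were thus at or near 0 in most libraries and clearly counted in a few, and Syt2 was detected in 1 library only. That library, the dendrites of neuron 7, had the highest sums of GABAergic and of astrocyte markers among dendrites, and their part in the Syt2 count was not tested.

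Syp, synaptophysin, was detected in 2 soma libraries and 1 dendrite library and did not exceed 8.2 CPM. Its relative Sypl1 was detected in the same numbers of libraries and reached 59.7 CPM in the soma of neuron 7. Syn3, the third synapsin, was detected in the dendrites of neuron 28 alone, with 27.9 CPM from 40 counts. The active zone organizers Rims1 and Rims2 were detected in 3 and 2 libraries, at up to 27.04 CPM for Rims1 in the dendrites of neuron 11 and 3.77 CPM for Rims2 in the soma of neuron 8. Napb, the beta-SNAP gene, was detected in the soma of neuron 22 alone, with 1.24 CPM. The annotation behind the counting is not given in the sources used here, so a low count is reported as such and not as absence of the transcript. Over the 9 genes, 4.76% of cases had both compartments, close to the 4.68% of the 10066 genes detected as rarely, so that little sharing between compartments is what such genes show in general.

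**Figure D2:**
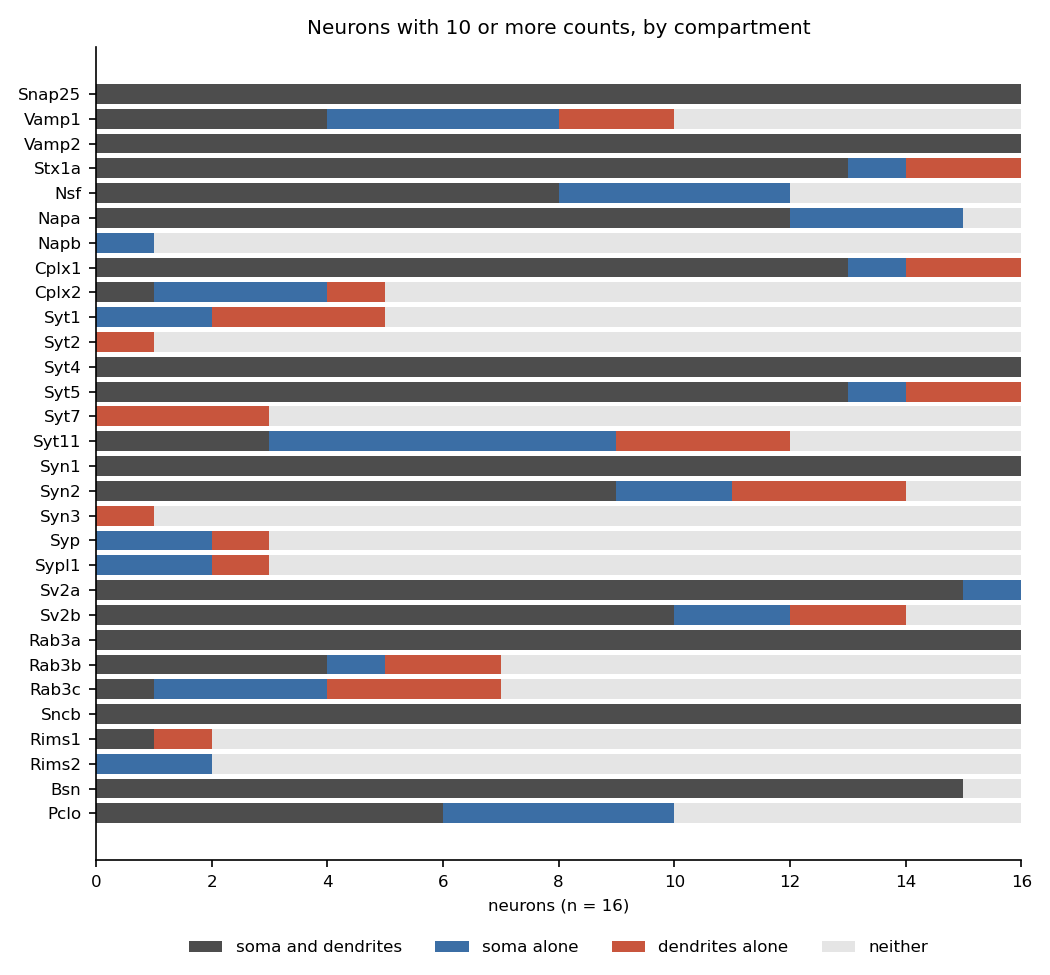
Number of neurons (x axis, of 16) in which each of the 30 genes had 10 or more counts in both soma and dendrites, in soma alone, in dendrites alone or in neither. Counts are at full depth. The bars of Snap25, Vamp2, Syt4, Syn1, Rab3a and Sncb are dark over all 16 neurons, Nsf, Napa and Pclo have no neuron with dendrites alone, and Syt7 has dendrites alone.

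Compared at the same depth, the number of these transcripts in soma and in dendrites differed by less than the spread between neurons. After thinning each library at random to 1071293 gene counts, which left 15 neurons without neuron 25, 15.4 ± 3.38 of the 30 genes had 5 or more counts in soma and 15.33 ± 3.56 in dendrites (SD, n = 15), a paired difference of -0.07 ± 3.49. The number was larger in dendrites in 4 neurons, smaller in 7 and equal in 4. It ranged from 11 to 21 in soma and from 8, in the dendrites of neuron 20, to 21. Without neuron 20 the paired difference was 0.14, and without neurons 7, 8 and 9 it was 0.17. At full depth and 10 or more counts it was -0.75 ± 3.51 (n = 16).

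To ask whether any of these transcripts differed in level between the compartments, dendrites were compared with soma in a model with the neuron as a block. Of the 30 genes, 16 passed the filter on low counts and were tested among 4916 genes, and the other 14 have no fold change. None of the 16 passed: 0 of 16 were called at an adjusted p under 0.05 in edgeR's quasi-likelihood test, where 0 of 4916 genes (percent called 0) passed. At an unadjusted p under 0.05 the numbers were 0 of 16 and 129 of 4916 (2.62%). DESeq2's Wald test, which called 406 of 4916 genes (8.26%), called 0 of 16. An exact two-sided sign-flip permutation test on each gene called 0 genes after adjustment and 264 before it, 1 of them among the 16 (Nsf). The p-values measure the spread between these neurons, some of which may share a culture.

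Log2 fold changes below are dendrites over soma with their SE from edgeR, and the adjusted p was 0.999 for each of the 16 genes except Sv2a and Sncb, where it was 0.9995. The fold change was above 0 for 6 of the 16 genes (37.5%) and for 2696 of the 4916 tested (54.8%), and the medians were -0.11 and 0.13. The size of this contrast varied with the setting. Without the replicate block 6 of 16 were above 0 and the medians were -0.09 and -0.07. With DESeq2 8 of 16 were above 0 and the medians were -0.0071 and 0.21. Per neuron, the median difference of the 16 genes ranged from -0.92 in neuron 9 to 0.47 in neuron 21 and was above 0 in 8 of 16 neurons. The median SE of the 16 was 1.05, or 0.71 for the widely detected genes and 1.35 for the rest. Changes larger than the SE also went uncalled, such as that of Nsf at -1.997 ± 1.35. Over all 4916 genes the smallest unadjusted p in edgeR was 0.0007, and the smallest adjusted p was 0.999. With 1 neuron left out, 5 fold changes turned from below 0 to above it: Syt5 to 0.10 without neuron 15, Syn1 to 0.011 without neuron 20, Sv2a to 0.28 without neuron 23, and Sncb to 0.24 and Pclo to 0.09 without neuron 11. Without the replicate block, fold changes were nearer 0 for Nsf (-0.42), Stx1a (0.63), Syn2 (0.19) and Bsn (0.20), and Sv2b turned to -0.19.

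Snap25, the SNARE of the plasma membrane that contributes a pair of helices to the complex, ranged in soma from 437 CPM in neuron 11 through a median of 1320 to 3188 CPM in neuron 20. In dendrites it ranged from 41.8 CPM in neuron 20 through a median of 1124 to 5114 CPM in neuron 9. The compartments overlapped over most of their range. The highest soma and the lowest dendrite library carried the same neuron number, 20, and that dendrite library had the fewest detected genes of all libraries. Its fold change was -0.36 ± 0.39 (edgeR, p = 0.367), with Snap25 higher in dendrites in 8 of 16 neurons, and without neuron 20 it was -0.11. Vamp2, the vesicle SNARE synaptobrevin, ranged from 136 to 1162 CPM in soma (median 259) and from 138 to 1297 CPM in dendrites (median 408). Its fold change was 0.34 ± 0.49 (edgeR, p = 0.486), with 10 of 16 neurons higher in dendrites.

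Stx1a, the syntaxin that pairs with Snap25 on the plasma membrane, varied more than Snap25 and Vamp2 in soma. In soma it ranged from 0 in neurons 11 and 28 through a median of 27.2 to 268 CPM in neuron 14, and in dendrites from 3.02 CPM in neuron 20 through a median of 87.98 to 298 CPM in neuron 14. Neuron 14 was thus highest in both compartments, but over 16 neurons the Spearman correlation between soma and dendrites was -0.037. The fold change of 1.24 ± 1.28 (edgeR, p = 0.344) came with 8 of 16 neurons higher in dendrites. The neurons with 0 counts in soma had 38.8 and 147 CPM in dendrites.

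Nsf, the ATPase that takes SNARE complexes apart, had the largest fold change of the 16 and the smallest p. It ranged from 0 to 103 CPM in soma (median 8.65, highest in neuron 13) and from 0 to 157 CPM in dendrites (median 1.3, highest in neuron 25). It was higher in soma in 10 neurons and in dendrites in 3, and it was at 0 in both in 3. In the model the fold change was -1.997 ± 1.35 (edgeR, p = 0.152), between -2.42 and -1.63 when each neuron was left out in turn, -2.83 without neurons 7, 8 and 9, and -0.42 without the replicate block. The exact two-sided sign-flip permutation test gave p = 0.0403, and 0.865 after adjustment. Napa, its adaptor, had a median of 35.1 CPM in soma (0 to 268) and 27.5 CPM in dendrites (0 to 107), and a fold change of -0.62 ± 1.02 (edgeR, p = 0.547). Napa was higher in dendrites in 6 neurons. Neither gene passed the adjusted test.

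Cplx1, a complexin that clamps and then promotes fusion, had a median of 180 CPM in soma, with a range from 0 in neuron 20 to 727 CPM in neuron 8, and of 141 CPM in dendrites, with a range from 2.8 in neuron 22 to 761 CPM in neuron 7. The highest soma and the highest dendrites were those with the highest sum of GABAergic markers in their compartments, and the part of this in the result was not tested. Its fold change was 0.50 ± 1.08 (edgeR, p = 0.645), with 9 of 16 neurons higher in dendrites, and 0.23 without neuron 20.

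Syt4, a synaptotagmin with weak calcium binding that is found on dendritic as well as axonal vesicles, ranged in soma from 2.43 CPM in neuron 15 through a median of 844 to 2502 CPM in neuron 22. In dendrites it ranged from 15.8 CPM in neuron 20 through a median of 734 to 3628 CPM in neuron 18. Neurons rich in Syt4 in the soma tended to be rich in the dendrites, with a Spearman correlation of 0.712 over 16 neurons, the highest of the 11 widely detected genes, and of 0.665 without neurons 7, 8 and 9. Its fold change was -0.33 ± 0.53 (edgeR, p = 0.547), with 6 of 16 neurons higher in dendrites. Syt5, a calcium-binding synaptotagmin, ranged from 0 to 286 CPM in soma (median 40.3) and from 0.45 to 610 CPM in dendrites (median 26.5), with a fold change of -0.27 ± 1.18 (edgeR, p = 0.818). Its direction turned to 0.18 without the replicate block and to 0.13 without neurons 7, 8 and 9.

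Syn1, the first synapsin, which tethers vesicles to each other and to actin, ranged from 121 to 682 CPM in soma (median 373). In dendrites it ranged from 10.7 CPM in neuron 20 to 565 CPM in neuron 27 (median 361). Apart from the dendrites of neuron 20 the compartments covered the same range. With a fold change of -0.21 ± 0.51 (edgeR, p = 0.683), Syn1 was higher in dendrites in 7 of 16 neurons, and without neuron 20 the fold change was 0.011. Syn2 had a median of 29.1 CPM in soma (0 to 361) and 40.6 CPM in dendrites (0 to 384), with a fold change of 0.96 ± 1.45 (edgeR, p = 0.514).

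The vesicle glycoproteins SV2A and SV2B, the first of which binds the antiepileptic drug levetiracetam, varied widely between cells. Sv2a ranged from 2.62 to 513 CPM in soma (median 135) and from 0.285 to 569 CPM in dendrites (median 138), with a fold change of -0.0036 ± 1.11 (edgeR, p = 0.997). Sv2b ranged from 0 to 272 CPM in soma (median 41.8) and from 0 to 275 CPM in dendrites (median 61.8), with a fold change of 0.59 ± 1.27 (edgeR, p = 0.65). Both genes covered nearly the same range in the compartments, and 6 and 8 of 16 neurons had more in dendrites.

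Rab3a, the main Rab GTPase of synaptic vesicles, ranged from 13.9 CPM in neuron 20 to 450 CPM in soma (median 162) and from 17.2 CPM, again in neuron 20, to 508 CPM in dendrites (median 114). The fold change was -0.30 ± 0.71 (edgeR, p = 0.672), with 6 of 16 neurons higher in dendrites. Sncb, beta-synuclein, ranged from 23.3 to 629 CPM in soma (median 90.4) and from 36.2 to 558 CPM in dendrites (median 101), with a fold change of -0.0063 ± 0.80 (edgeR, p = 0.994). Both genes were detected in 32 of 32 libraries, but soma and dendrites did not rank the neurons alike, with Spearman correlations over 16 neurons of -0.1 for Rab3a and -0.138 for Sncb. Without neurons 7, 8 and 9 these were 0.143 and 0.082, and without neuron 20 they were -0.336 and -0.357.

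Bsn, which encodes the active zone scaffold Bassoon, was higher in dendrites in 12 of 16 neurons, the most of the 16 genes. The 12 include neuron 20, where Bsn had 8 counts in soma and 6 in dendrites, below the threshold for detection. Its level ranged from 1.3 CPM in neuron 20 through a median of 197 to 887 CPM in soma, and from 1.39 CPM, also in neuron 20, through a median of 312 to 976 CPM in dendrites. Its fold change was 0.69 ± 0.70 (edgeR, p = 0.333), between 0.43 and 0.94 when each neuron was left out in turn and 0.20 without the replicate block, and the compartments overlapped. Pclo, its partner scaffold, had a median of 6.42 CPM in soma (0 to 133) and 0.769 CPM in dendrites (0 to 209), with a fold change of -0.48 ± 1.89 (edgeR, p = 0.80). The 2 scaffolds thus differed in breadth, 30 libraries for Bsn and 16 for Pclo.

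**Figure D3:**
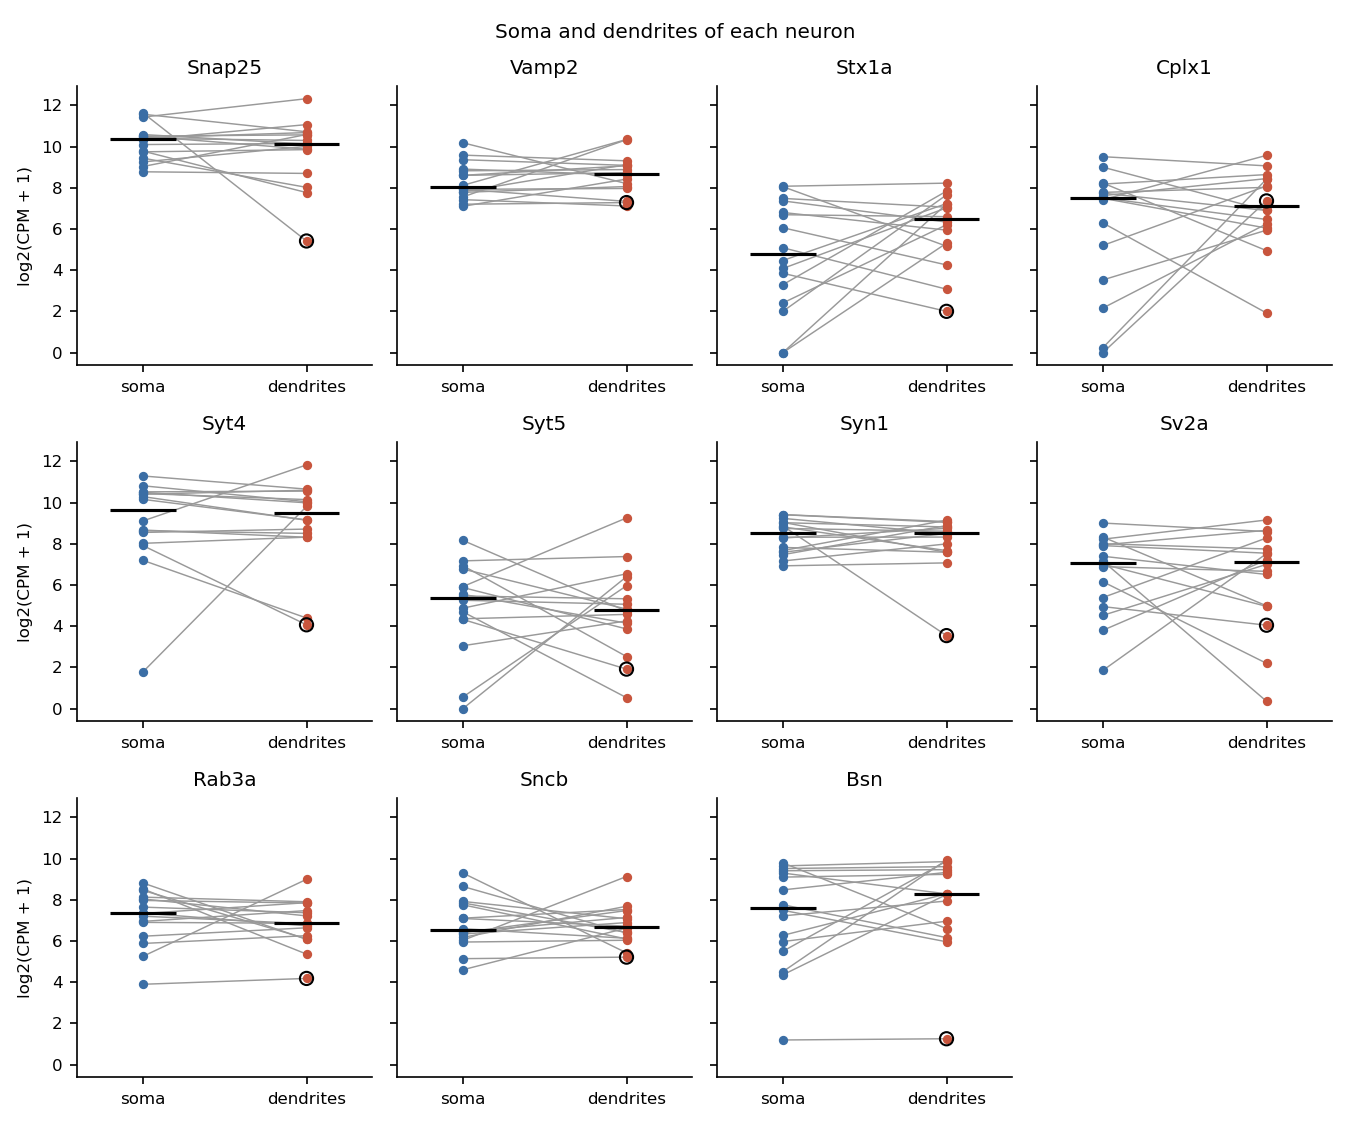
Level of the 11 widely detected genes in the soma and dendrites of each neuron, as log2(CPM + 1); lines join the libraries of 1 neuron, black bars are medians over 16 neurons and the open ring marks the dendrites of neuron 20. Lines cross in every panel, and among dendrites the ringed point is lowest for Snap25, Stx1a, Syt4, Syn1, Rab3a, Sncb and Bsn.

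**Figure D4:**
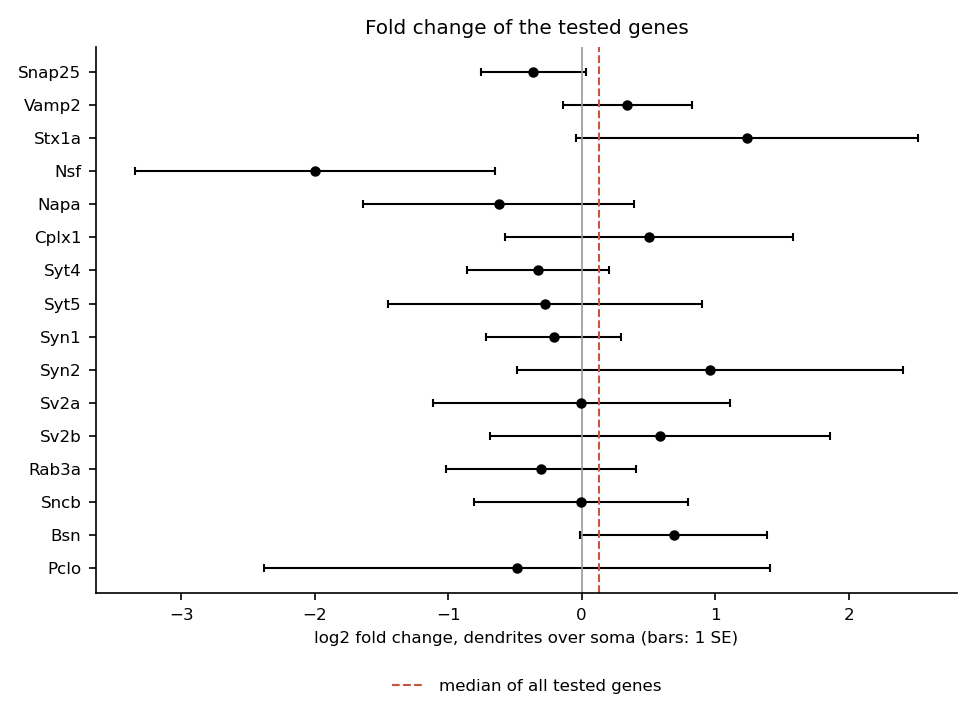
Log2 fold change, dendrites over soma, of the 16 tested genes from edgeR; bars are 1 SE and the dashed line is the median of all 4916 tested genes, 0.13. The bars are short for Snap25, Vamp2, Syn1 and Syt4 and long for Pclo and Syn2, and Nsf, at -1.997 ± 1.35, is the only gene whose bar lies wholly on one side of 0 and of the dashed line.

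Whether a neuron with more of a transcript in its soma also had more in its dendrites varied between genes. The 11 widely detected genes had a median Spearman correlation between soma and dendrites of 0.176 over 16 neurons (from -0.138 to 0.712), against 0.085 for the 1538 widely detected genes of the table. This median was 0.221 without neuron 20 and 0.104 without neurons 7, 8 and 9. Among genes that were detected less widely, the correlation was 0.613 for Nsf, 0.512 for Sv2b and 0.505 for Rab3b (0.371 without neurons 7, 8 and 9), values to which neurons at 0 in both compartments contribute. These are descriptions over 16 neurons whose libraries differ in depth.

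Pairs of the 11 genes varied together within a compartment to a small degree. Over 55 pairs, the median Spearman correlation was 0.109 in soma (from -0.468 to 0.833) and 0.226 in dendrites (from -0.253 to 0.729). Stx1a and Syt5 gave the highest value in soma, 0.833, where both were at 0 in neuron 11, but -0.162 in dendrites. Syn1 and Sncb gave the highest in dendrites, 0.729, where both were lowest in neuron 20 and the value without that neuron was 0.671, but -0.115 in soma. The pairs that ranked first in one compartment did not do so in the other.

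Other presynaptic genes were read from the same fit. Of 27 further fusion regulators and SNARE genes, 9 were tested, 4 of them above 0 and 5 below, with a median of -0.29. The 2 with the smallest p were Syt17, a further synaptotagmin, at 1.96 ± 2.07 and Snap29, a SNARE of several membranes, at -1.17 ± 1.25. Of 13 other vesicle genes, 6 were tested (3 above 0, 3 below, median 0.47), led by Scamp1, a vesicle carrier membrane protein, at 1.00 ± 0.70, higher in dendrites in 10 of 16 neurons. Of 15 other active zone genes, 6 were tested (5 above 0, 1 below, median 0.58), led by Lin7b at 2.46 ± 2.37 and Rimbp2, which links RIM proteins to calcium channels, at 1.95 ± 2.06. Of 18 genes of vesicle endocytosis, 11 were tested (5 above 0, 6 below, median -0.10), led by Cltc, the clathrin heavy chain, at -0.67 ± 0.44 and Sh3gl1, an endophilin, at -2.05 ± 1.60, higher in dendrites in 5 and 4 of 16 neurons. In edgeR 0 of these 32 tested genes were called, and the adjusted p was 0.999 for each gene named.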

How the data were processed

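Each library came as a table of raw read counts per gene, deposited by the authors as whole numbers, with 17216 gene rows and 92 rows of ERCC spike-in RNAs, which stayed out of library sizes and tests. Per the labels' protocols, RNA was amplified in 3 rounds of antisense RNA amplification. The genome build was rn6, per the submitters' processing notes. Aligner, annotation and use of strand in counting are not given in the sources used here, so counts of overlapping or near-identical genes are uncertain. CPM are counts scaled to 1000000 gene counts per library.

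The members, the lists and the rule for genes named were chosen with earlier results of these data known. All 30 members are given, tested ones with full values, and of each further list the 2 tested genes with the smallest unadjusted p. A gene that this rule names is not reported here. Levels were not compared between genes, since no transcript lengths were used.

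The main test was edgeR 4.0.16 (R 4.3.3): filterByExpr by compartment (minimum count 10), TMM, robust glmQLFit and glmQLFTest, with the neuron as a block and Benjamini-Hochberg adjustment at 0.05. The SE is the absolute log2 fold change divided by the root of the F statistic. The series text says that each cell gave 1 soma and 1 dendrite sample. In a check of this pairing, centred profiles correlated at 0.0678 within neurons and -0.0005 between neurons, and over 0.1 in 4 of 16 neurons. Alternatives were DESeq2 1.42.0, its size factors, no block, no filter, the exact sign-flip test on log2 CPM (prior count 2), each neuron left out and, chosen after seeing the data, neurons 7, 8 and 9 left out, and correlations without these or without neuron 20. Motifs and correlations were computed in Python 3.11.15.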

Additional observations from a re-analysis of the deposited data

How the results depend on the processing

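The count of called members was 0 under every alternative run. Over all genes the count was 0, except for 1 with no filter on low counts and 406 with DESeq2's Wald test. The median log2 fold change of the tested members was -0.11, and -0.09 without the replicate block, -0.06 with DESeq2 size factors, -0.03 with no filter (30 members tested), -0.0071 with DESeq2, -0.0008 without neurons 7, 8 and 9 (chosen after seeing the data), and between -0.33 (without neuron 21) and 0.08 (without neuron 15) when each neuron was left out. Fold changes turned direction for Syt5 without the replicate block (0.18) and without neurons 7, 8 and 9 (0.13), for Sv2b without the replicate block (-0.19), for Syn1 without neuron 20 (0.011), for Sv2a with DESeq2 size factors (0.0445) and DESeq2 (0.0441), and for Sncb with these (0.0361 and 0.0378) and without neurons 7, 8 and 9 (0.0399). The causes were not tested. The block changed no call, but moved Nsf from -1.997 to -0.42, Stx1a from 1.24 to 0.63 and Syn2 from 0.96 to 0.19. Summed CPM and members detected per library moved by less than 1 SD between neurons under each alternative, though the sums of all members, of the SNARE genes and of the synaptotagmins turned direction in some. Depth limits neuron 25 most, and the SE of the fold changes, from 0.39 for Snap25 to 1.89 for Pclo in log2, limit what could be detected.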
